A study of Mus musculus with 26 samples.

Results

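Pancreatic islets of young mice kept in culture at 11 mM glucose were compared with freshly isolated islets of young mice, over all genes. The comparison rests on 4 of the 26 arrays of the series: the fresh samples (replicates 1 and 2) and the cultured samples numbered 3 and 4. Cultured replicates 1 and 2 differ in a property of the arrays and formed a group of their own, which entered the estimate of the spread but not the difference. Their Gapdh control had 5'/3' ratios of 0.12 and 0.152, against 1.26 and 1.03 for cultured replicates 3 and 4 and 1.48 and 1.24 for the fresh arrays. Per the labels, the mice were wild-type C57/Bl6J males, 5 weeks old. The cultured islets recovered for 1 day in RPMI medium with 11 mM glucose, 10% fetal calf serum and antibiotics, and then spent 2 days in the same supplemented medium at 11 mM. The labels carry this protocol on every sample, the fresh ones included, and the fresh islets are taken here as not cultured from their titles alone. No label says how many mice gave the islets of a sample, and the replicates are called biological. Culture came with recovery, serum, medium and time since isolation, which cannot be told apart here. Islets of old mice of the same strain (56 weeks), 2 arrays fresh and 2 at 11 mM, gave a second culture comparison that shares no array with the young one.

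Islets are clusters of endocrine cells: beta cells that secrete insulin, alpha cells that secrete glucagon, and delta and PP cells. A dense capillary bed with pericytes and resident macrophages runs through them, and the exocrine acinar tissue that makes digestive enzymes surrounds them, so that isolation by digestion frees islets with some acinar cells attached. Immediate early genes such as Fos are transcribed within minutes of stress or growth signals. ATF4 is a transcription factor of the integrated stress response that raises genes of amino acid synthesis, amino acid transport and tRNA charging.

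The fresh pair correlated across genes at 0.98 and the cultured pair at 0.984 on the log2 scale, against 0.956 to 0.964 between fresh and cultured arrays (genes are not independent replicates). Endocrine marker genes were bright on every array: Ins2, an insulin gene, read 5224 and 5148 fresh and 4254 and 4706 cultured, and Gcg, the glucagon gene, read 14839 and 14932 and 12966 and 14468. The bacteriophage spike-in control Cre, added to every array, read 11799 and 12356 on the fresh and 10291 and 11241 on the cultured arrays; the signal of this control was thus lower on both cultured arrays. The annotation used here names neither Ins1 nor Mafa.

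A small share of the genes tested was called different between cultured and fresh islets, some of them by a wide margin. Values are the deposited signals, and differences are cultured minus fresh means of log2(signal + 16), which understates the change of dim genes. Of 12580 genes tested, 527 passed a Benjamini-Hochberg adjusted p of 0.05 (4.19%): 211 rose (1.68%) and 316 fell (2.51%). A change of at least 2-fold was called for 284 genes (2.26%), 91 higher (0.723%) and 193 lower (1.53%). With 2 arrays a group, separation of the arrays alone says little: both cultured arrays lay above both fresh arrays for 22.6% of all genes and below for 23.6%. The median difference of all genes was -0.0027, and 1936 genes had an unadjusted limma p under 0.05. That count is given below chiefly for lists with no call. The lists are short, so 0 calls in a list can lie near the 4.19% of all genes. Of the 527 calls, 160 held with each of the 4 arrays left out in turn (67 higher, 93 lower).

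**Figure D1:**
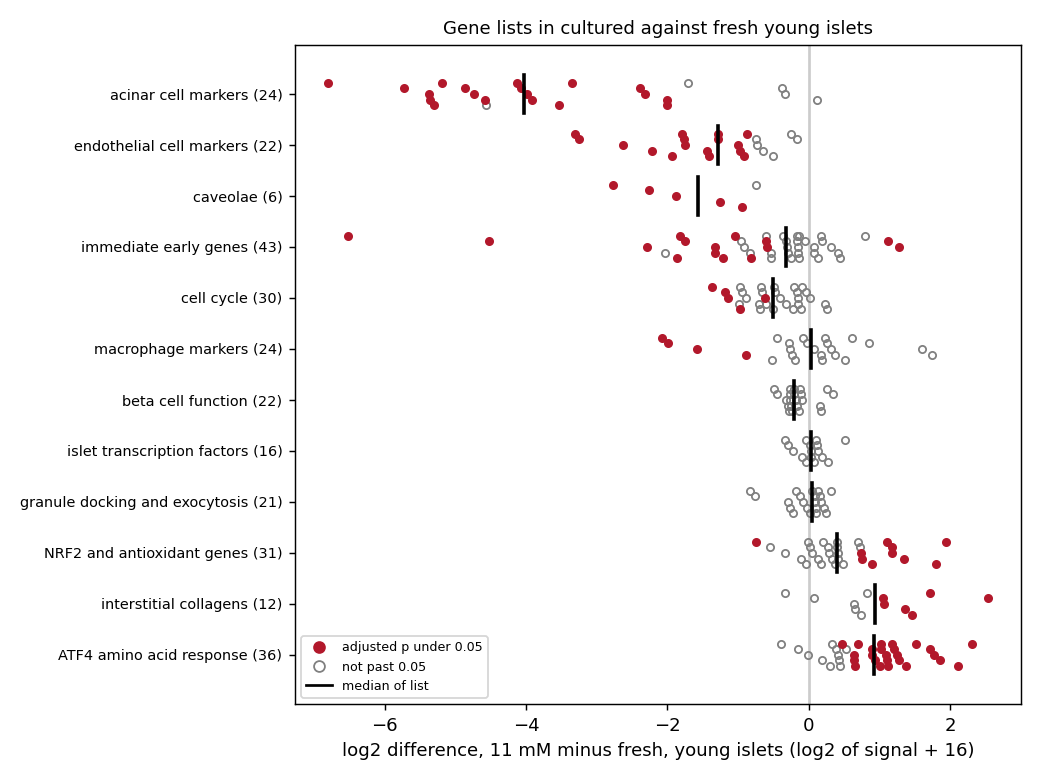
Each point is a gene, by its log2 difference between cultured (11 mM, 2 arrays) and fresh (2 arrays) young islets on the horizontal axis, in 12 gene lists with the number measured in parentheses; red points passed an adjusted p of 0.05, open points did not, and black lines are list medians. Acinar markers lie lowest (median -4.03) and ATF4 response genes lie mostly to the right (median 0.92). No beta cell function, islet transcription factor or exocytosis gene passed, against 4.19% of all genes.

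Digestive enzyme genes of acinar cells were among the genes with the largest falls. Of 24 acinar markers measured, 19 fell, none rose and 5 did not pass, with a median difference of -4.03. Zg16, a zymogen granule protein, read 1033 and 661 on the fresh arrays and 7 and 2 on the cultured arrays, a difference of -5.37 (SE 0.47, adjusted p = 1.87e-07). The protease precursor genes followed. Cela3b, an elastase, went from 5735 and 3415 to 50 and 8 (-6.80, SE 1.13), and Cpb1, carboxypeptidase B1, from 2879 and 1641 to 36 and 17 (-5.72, SE 0.75). Fresh replicate 1 was the higher of the fresh arrays for each of these genes, and both cultured arrays lay far below both fresh arrays. Of the other secreted enzymes, Cela2a, Ctrl (a chymotrypsin-like protease), Cel (carboxyl ester lipase), Clps (colipase, the cofactor of pancreatic lipase) and Rnase1 (pancreatic ribonuclease) fell, with differences of -5.30, -5.37, -5.19, -4.12 and -4.57. The transcript 2210010C04Rik, a trypsinogen-like gene, fell by 4.68.

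The summed signal of the 24 acinar markers was 29442 and 16163 fresh, and 1431 and 837 cultured. Whole islets were lysed, so fewer cells of a type and less RNA per cell cannot be told apart, here and for the cell types that follow. Prss2, a trypsinogen, fell from 2856 and 1478 to 141 and 16, Cpa1, carboxypeptidase A1, from 1295 and 602 to 41 and 4, and Sycn, syncollin of the zymogen granule, from 623 and 280 to 19 and 3. Those 3 calls rested on single arrays: Prss2 was lost without cultured replicate 4, fresh replicate 1 or fresh replicate 2 (adjusted p 0.0724 to 0.274), Cpa1 without cultured replicate 4 or fresh replicate 1 (adjusted p 0.139 to 0.161) and Sycn without fresh replicate 1 (adjusted p = 0.0504). Over the list, 10 of the 19 calls held with each array left out, and the count was 10 without fresh replicate 1 and 12 without cultured replicate 4. Duct cell markers, of the other exocrine epithelium, gave no call: 0 of 14 passed (3 at an unadjusted p under 0.05), and their summed signal was 10545 and 9266 fresh against 9479 and 10086 cultured.

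Genes of the capillary bed also fell. Of 22 endothelial markers measured, 16 fell, none rose and 6 did not pass, with a median of -1.29 and all 22 estimates below 0. Kdr, the main VEGF receptor, read 431 and 457 fresh and 39 and 23 cultured (-3.31, SE 0.27, adjusted p = 8.28e-08). Plvap, which forms the diaphragms of fenestrated capillaries, read 848 and 672 and 71 and 60 (-3.25, SE 0.27). The groups lay well apart for both, with the members of a pair close together. Emcn (endomucin), Ptprb (an endothelial phosphatase), Tek (the angiopoietin receptor TIE2), Sox18 (an endothelial transcription factor) and Esm1 fell, with differences of -2.22, -2.63, -1.93, -1.75 and -1.42. Epas1, the hypoxia-inducible factor HIF-2alpha, which is abundant in endothelium, fell from 1011 and 956 to 147 and 181, and Rgcc, a cell cycle regulator, fell from 693 and 591 to 25 and 15 (-4.20, SE 0.24). Summed over the 22 markers, the signal was 5972 and 5314 fresh against 1769 and 1579 cultured. Of the 16 calls, 9 held with each array left out, and 10 genes passed without cultured replicate 4 or fresh replicate 1.

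**Figure D2:**
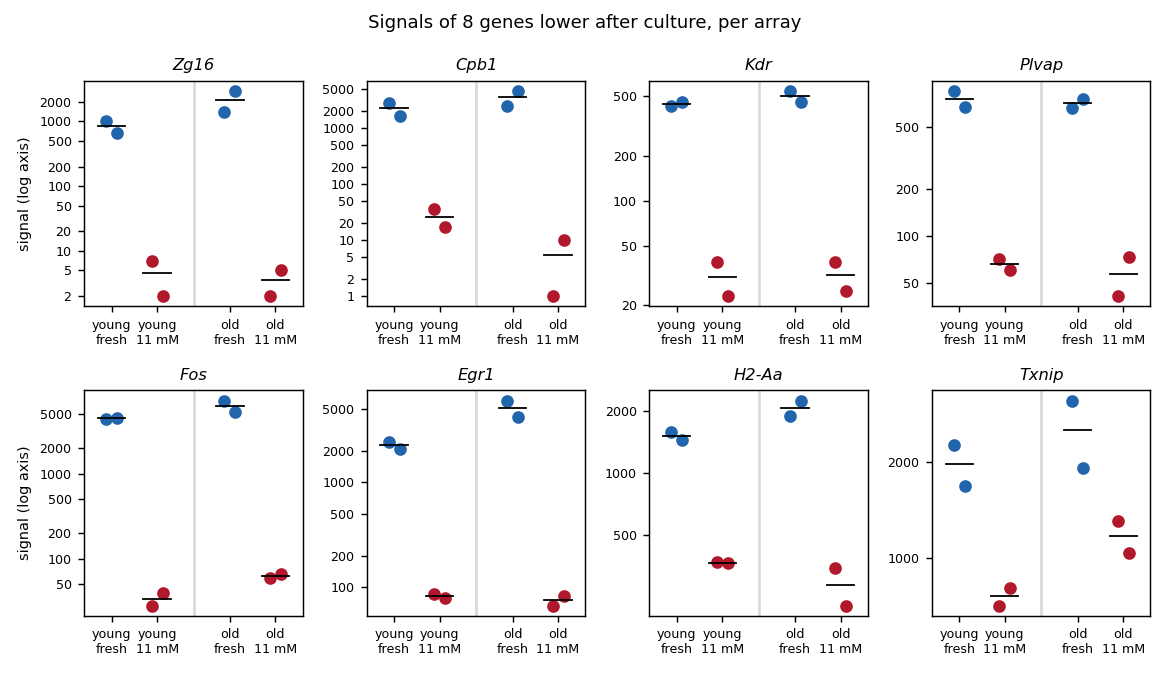
Signals of 8 genes that fell in culture are plotted per array on log axes for young and old islets, fresh (blue) and at 11 mM (red), with the mean as a line. In young islets both cultured arrays lie below both fresh arrays in every panel, by the widest margin for Zg16 (1033 and 661 against 7 and 2) and Fos (4425 and 4553 against 28 and 39).

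Caveolae, flask-shaped pits of the plasma membrane that endothelial cells hold in large numbers, were represented by 6 genes, a list chosen after values were seen, and 5 fell (median -1.57). Of those 5 calls, 2 held with each array left out, Cav1 and Cavin2, and the count was 2 without cultured replicate 4 and 3 without fresh replicate 1 or 2. Cav1, the main caveolin, read 454 and 440 fresh and 85 and 76 cultured (-2.26, SE 0.22), and Cavin2, a coat protein, 246 and 204 and 15 and 24 (-2.77, SE 0.23).

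Pericyte and stellate cell markers divided: of 20 measured, 6 rose and 3 fell, and of these calls 1 rise and 2 falls held with each array left out. The 6 rises were 2 without cultured replicate 3 or fresh replicate 2, and 3 without cultured replicate 4. Rgs5, a signalling regulator that marks pericytes, fell from 2287 and 2012 to 749 and 558 (-1.71, SE 0.19). Postn, periostin, a matrix protein of activated stromal cells, rose from 210 and 178 to 817 and 688 (1.87, SE 0.22). Summed over the list, the signals were 9372 and 7460 fresh against 10012 and 8786 cultured.

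Among 24 macrophage markers, 4 fell and none rose, and all 4 belong to antigen presentation through MHC class II. H2-Aa, a class II alpha chain, read 1580 and 1456 fresh and 370 and 367 cultured (-2.0, SE 0.37, adjusted p = 0.00245). The beta chains H2-Eb1 and H2-Ab1 fell from 503 and 507 to 127 and 91 and from 349 and 329 to 104 and 101 (-2.07 and -1.58). The invariant chain gene Cd74 was the weakest of the 4 (-0.89, SE 0.24), and it was lost without cultured replicate 3, cultured replicate 4, fresh replicate 1 or fresh replicate 2 (adjusted p 0.114 to 0.206). Genes that macrophages express more generally did not pass: the receptor gene Csf1r read 490 and 417 fresh and 335 and 285 cultured (-0.53, 95% interval -1.22 to 0.17), and the complement gene C1qa read 629 and 501 and 774 and 530 (0.19, -0.31 to 0.68). Class II genes are also expressed by dendritic cells and B cells, and of 7 lymphocyte markers measured 0 passed (4 at an unadjusted p under 0.05).

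Matrix genes moved both ways. Fn1, fibronectin, read 60 and 42 fresh and 466 and 353 cultured (2.67, SE 0.25, adjusted p = 5.64e-07). Tnc, tenascin C, a matrix protein of wounds and development, went from 13 and 13 to 133 and 124 (2.32, SE 0.30), and Col5a2, a chain of fibrillar collagen V, from 170 and 147 to 984 and 996 (2.53, SE 0.17). Each cultured array was several times as bright as either fresh array for these 3 genes. Of 12 interstitial collagen chains, a list chosen after values were seen, 6 rose and none fell (median 0.93), and 2 of the 6 calls held with each array left out (3 genes passed without cultured replicate 3, cultured replicate 4 or fresh replicate 2), Col5a2 and Col8a1 (from 51 and 34 to 203 and 150). The call of Col8a1 was lost with all 4 cultured replicates (adjusted p = 0.0546). Basement membrane genes, which line capillaries and were also grouped after values were seen, went the other way, with 4 of 15 lower and none higher (median -0.55), or 2 of 15 without fresh replicate 1. Col4a2, a collagen IV chain, read 442 and 363 fresh and 165 and 148 cultured (-1.27, SE 0.18). Timp3, an inhibitor of matrix proteases, fell from 701 and 354 to 115 and 93, with fresh replicate 1 well above fresh replicate 2 (-2.11, SE 0.34).

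Some immediate early genes, the first genes cells transcribe after a stimulus, were higher in fresh than in cultured islets. Of 43 measured, 13 fell, 2 rose and 28 did not pass (median -0.33). Among the transcription factors, Fos, a subunit of AP-1, read 4425 and 4553 fresh and 28 and 39 cultured (-6.52, SE 0.32, adjusted p = 5.1e-11), and Egr1, a zinc finger factor, read 2425 and 2082 and 86 and 79 (-4.52, SE 0.24). Jun, the partner of Fos, read 664 and 682 and 123 and 127 (-2.29, SE 0.36). The gap between the fresh and the cultured pair was far wider than the spread within either pair for all 3 genes. Ier2 fell from 138 and 152 to 58 and 67, and Dusp1, a phosphatase that switches off MAP kinases, fell from 883 and 733 to 232 and 202 (-1.82, SE 0.17). These 5 calls were the ones in the list that held with each array left out, and the 13 falls were 6 to 8 with any 1 of the 4 arrays left out. The fall did not extend to all members: Junb read 38 and 46 fresh and 36 and 36 cultured (-0.15, 95% interval -1.13 to 0.83). The 2 members that rose, Atf3 and Gadd45a, are also stress response genes, and neither call held with each array left out: Atf3 was lost without cultured replicate 3, cultured replicate 4 or fresh replicate 1 (adjusted p 0.156 to 0.5) and Gadd45a without cultured replicate 3, cultured replicate 4 or fresh replicate 2 (adjusted p 0.0556 to 0.094). With all 4 cultured replicates Gadd45a had an adjusted p of 0.843.

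Promoter sequence was read for the immediate early genes that the RefSeq promoter table (GRCm38.p6) holds. The CRE half-site TGACG, the core letters of the element bound by CREB, was searched on both strands in the 250 bases before the start. It occurred in 9 of the 13 called immediate early genes, of either direction, that have a promoter in the table (Atf3, which rose, is one of the 9) and in 13 of the 24 members with a promoter that did not pass, against 30.4% of the 10203 genes tested that have one. The full palindrome TGACGTCA, which contains the half-site, occurred in 3.05% of all and in 2 of the 13. The motifs were chosen after values were seen, and a match is not a bound site. Fos and Dusp1 are shown because both carry a match and their calls held with each array left out. Egr1, Jun and Ier2, whose calls also held, are not among the 9, for lack of a match or of a promoter in the table. The windows of Fos (chr12:85473736-85473853, plus strand) and Dusp1 (chr17:26508583-26508640, minus strand) have the half-sites or the palindrome in capitals:
Fos: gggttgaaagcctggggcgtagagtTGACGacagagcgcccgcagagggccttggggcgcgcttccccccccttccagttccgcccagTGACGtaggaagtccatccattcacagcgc
Dusp1: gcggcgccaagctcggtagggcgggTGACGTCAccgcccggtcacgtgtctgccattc

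Genes of the ATF4 amino acid response rose together. Of 36 measured, 25 rose, none fell and 11 did not pass, with a median difference of 0.92, against 1.68% of all genes called higher. Their summed signal was 14273 and 14758 fresh and 26419 and 26001 cultured, and 17 of the 25 calls held with each array left out. The regulators differed in size. Atf4 itself read 2336 and 1667 fresh and 2991 and 3197 cultured (0.64, SE 0.12, adjusted p = 0.0023), and its call was lost without fresh replicate 2 (adjusted p = 0.0736) and with the mean of its probe sets, which differ in sign (adjusted p = 0.149). The related factor Atf5 went from 257 and 316 to 710 and 643 (1.2, SE 0.16), and Trib3, a pseudokinase induced by ATF4, from 43 and 68 to 179 and 261 (1.72, SE 0.30).

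Enzymes of serine, glycine and one-carbon metabolism were among the larger rises. Aldh1l2, which oxidises formyl-tetrahydrofolate in mitochondria, read 204 and 255 fresh and 1134 and 1262 cultured (2.31, SE 0.19, adjusted p = 8.28e-08). Psat1 and Psph, the later enzymes of serine synthesis, read 66 and 107 and 116 and 182 fresh against 326 and 326 and 435 and 456 cultured (1.77 and 1.51). The mitochondrial folate enzyme Mthfd2 rose from 471 and 727 to 1605 and 1476 (1.37, SE 0.22). Asns, asparagine synthetase, read 1041 and 1414 and 3073 and 2760 (1.25, SE 0.14), and Pck2, mitochondrial phosphoenolpyruvate carboxykinase, read 364 and 399 and 757 and 676 (0.88, SE 0.11). In all of these the lower cultured array was above the higher fresh array. Chac1, which degrades glutathione, rose from 142 and 129 to 640 and 635 (2.11, SE 0.16), and Eif4ebp1, an inhibitor of cap-dependent translation, from 113 and 172 to 540 and 555 (1.86, SE 0.21). The amino acid transporter genes Slc7a5 and Slc1a4 rose by 0.90 and 1.02, and Vldlr, a lipoprotein receptor gene, by 1.12. The gene of the stress factor CHOP, Ddit3, was near the threshold at 280 and 247 fresh and 397 and 484 cultured (0.70, SE 0.20, adjusted p = 0.0473), and its call was lost without cultured replicate 3, cultured replicate 4, fresh replicate 1 or fresh replicate 2 (adjusted p 0.0791 to 0.342).

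The C/EBP-ATF composite element was searched as TGATGNAA on both strands of the 250 bases before the start. It occurred in 2.46% of the genes tested and in 3 of the 16 called acinar markers with a promoter, which fell. Among ATF4 list genes with a RefSeq promoter, it occurred in 8 of the 22 called and in 0 of the 6 that were not called. The 8 were Asns, Chac1, Vldlr, Aars, Atf3, Slc7a11, Nupr1 and Gars. The list was compiled from known ATF4 targets, some of which were first recognised through this element, so that share is a description of the list. Windows of the first 4 (Asns chr6:7693210-7693257, minus strand, Chac1 chr2:119351024-119351081, plus strand, Vldlr chr19:27216795-27216852, plus strand, Aars chr8:111033705-111033762, plus strand) are shown because their calls held with each array left out, with the matched letters, or their reverse complement, in capitals:
Asns: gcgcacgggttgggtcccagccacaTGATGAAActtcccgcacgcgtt
Chac1: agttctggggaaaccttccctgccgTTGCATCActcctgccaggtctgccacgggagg
Vldlr: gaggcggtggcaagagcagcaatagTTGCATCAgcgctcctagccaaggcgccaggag
Aars: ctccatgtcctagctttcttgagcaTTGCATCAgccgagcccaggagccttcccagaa
The remaining genes of the 8 were weaker calls: Slc7a11 was lost without cultured replicate 3, cultured replicate 4, fresh replicate 1 or fresh replicate 2 (adjusted p 0.0758 to 0.219), Nupr1 without cultured replicate 4, fresh replicate 1 or fresh replicate 2 (adjusted p 0.0592 to 0.206), Gars without cultured replicate 3, cultured replicate 4, fresh replicate 1 or fresh replicate 2 (adjusted p 0.0507 to 0.146), and Atf3 without cultured replicate 3, cultured replicate 4 or fresh replicate 1 (adjusted p 0.156 to 0.5).

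Cytosolic aminoacyl-tRNA synthetases, which charge tRNAs for translation in the cytosol, rose in part: 7 of 19 passed, all higher (median 0.40). Of the 7 calls, 4 held with each array left out, and the count was 4 without cultured replicate 3, fresh replicate 1 or fresh replicate 2. Mars1, Aars and Iars, for methionine, alanine and isoleucine, rose by 1.04 (SE 0.14), 0.94 (SE 0.15) and 0.64 (SE 0.10). Mars1 read 466 and 556 fresh and 1113 and 1022 cultured. Of 15 mitochondrial synthetases 0 passed in limma's test (0 at an unadjusted p under 0.05), with a median of 0.03. Both lists were chosen after values were seen, and the difference between them was not tested.

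**Figure D3:**
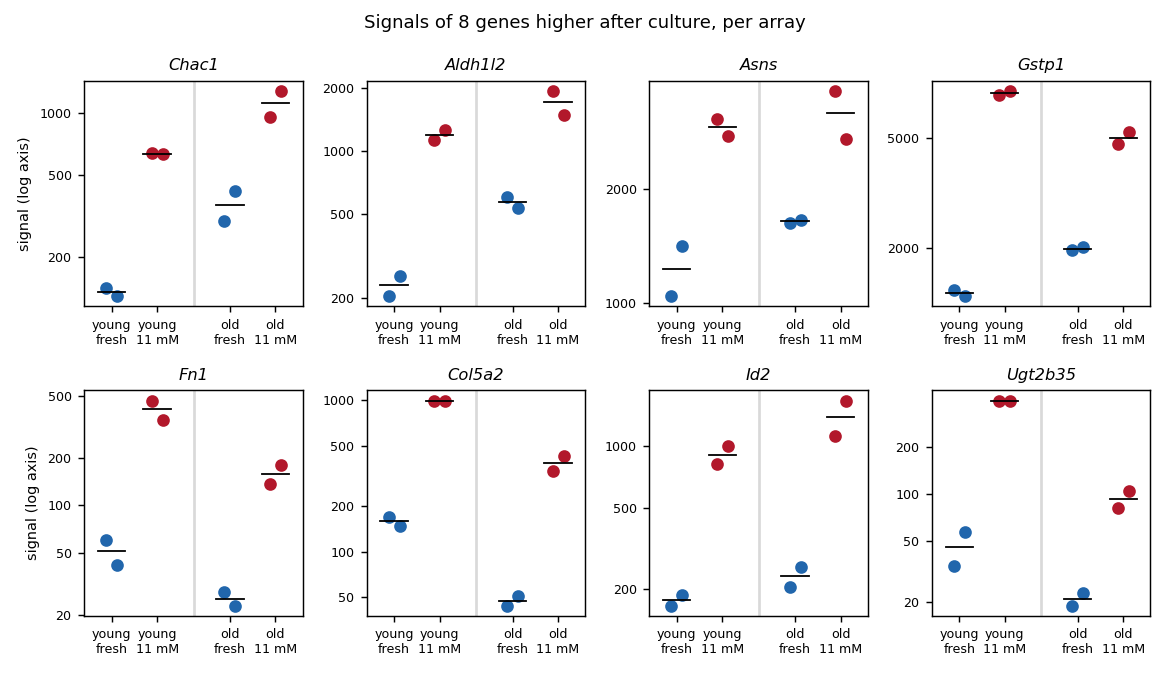
Signals of 8 genes that rose in culture are plotted per array on log axes for young and old islets, fresh (blue) and at 11 mM (red), with the mean as a line. Both cultured arrays lie above both fresh arrays in every panel at both ages; Gstp1 went from 1415 and 1343 to 7168 and 7399 in young islets.

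Some genes of oxidant defence rose. Of 31 NRF2 and antioxidant genes, 9 rose, 1 fell and 21 did not pass (median 0.40). Gstm1 and Gstm2, glutathione S-transferases of the mu class, read 218 and 162 and 94 and 119 fresh against 951 and 616 and 237 and 257 cultured (1.94 and 1.11). Txnrd1, thioredoxin reductase, read 574 and 508 and 1317 and 1164 (1.17, SE 0.13), and Gpx2, a glutathione peroxidase, 254 and 274 and 674 and 724 (1.35, SE 0.21). These 4 calls were the ones of the list that held with each array left out, and 4 rises passed with any 1 of the 4 arrays left out. Hmox1, haem oxygenase 1, rose from 20 and 26 to 116 and 123, and its call was lost without cultured replicate 3, cultured replicate 4, fresh replicate 1 or fresh replicate 2 (adjusted p 0.075 to 0.147). Outside the list, Gstp1, a pi class glutathione S-transferase, read 1415 and 1343 fresh and 7168 and 7399 cultured (2.39, SE 0.11, adjusted p = 3.43e-11). Of 16 glutathione S-transferase genes grouped after values were seen, Gstp1, Gstm1 and Gstm2 were the 3 that rose. Ugt2b35, a UDP-glucuronosyltransferase that conjugates steroids and drugs, rose from 34 and 57 to 397 and 401 (2.78, SE 0.34). That was the largest rise of all called genes on the log2(signal + 16) scale. As a ratio of mean signals it was 8.77, against 15.75 for the dim gene Tmem212. Cyp1a1, the cytochrome P450 induced by the aryl hydrocarbon receptor, was dim and rose from 22 and 4 to 110 and 80 (2.0, SE 0.26), and with all 4 cultured replicates its adjusted p was 0.236.

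Other large rises belonged to genes outside those groups. Id2 and Id3, inhibitors of helix-loop-helix factors that respond to BMP signals, read 167 and 187 and 153 and 144 fresh against 817 and 1007 and 583 and 658 cultured (2.26, SE 0.21, and 1.95, SE 0.16). Gsdma, a gasdermin, rose from 19 and 18 to 155 and 214, and Tmem212, a membrane protein gene, from 5 and 3 to 65 and 61, so both were at or near the floor in fresh islets. Lgals3, galectin 3, which macrophages express strongly, rose from 58 and 54 to 382 and 222 (2.10, SE 0.46), and its call was lost without cultured replicate 3, fresh replicate 1 or fresh replicate 2 (adjusted p 0.058 to 0.135).

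Genes that define beta cell function did not change past the threshold in the fit over all arrays. Of 22 measured, 0 passed in either direction (3 at an unadjusted p under 0.05), against 4.19% of all genes. The median was -0.21, with 18 estimates below 0. Slc2a2, the glucose transporter GLUT2, read 8942 and 8060 fresh and 7637 and 7294 cultured (-0.19, 95% interval -0.92 to 0.55). The difference of Ins2 was -0.21 (-0.68 to 0.26). Pcsk1, the proinsulin convertase, was lower at 3333 and 3184 fresh against 2313 and 2473 cultured, a value that did not pass (-0.44, -0.80 to -0.08, adjusted p = 0.188). Pcsk1 was the 1 gene of the list that passed in the fit to the 12 arrays of one set (adjusted p = 0.028) and in the fit to the 4 arrays alone (adjusted p = 0.0322). Abcc8, the sulphonylurea receptor of the KATP channel, read 2792 and 2526 and 1961 and 2310 (-0.32, -0.55 to -0.08). For 15 of the 22 genes both cultured arrays lay below both fresh arrays, against 23.6% of all genes. The Cre control was also lower on both cultured arrays, and a link was not tested. In those 15 genes the shift was under 2-fold. That was so for every estimate in the list, which ran from -0.49 to 0.35.

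The transcription factors that keep islet cell identity gave no call. Of 16 measured, 0 passed (3 at an unadjusted p under 0.05, median 0.03). As 4.19% of all genes passed, 0 calls in a list of this size is near the share of all genes. Pdx1, the master regulator of pancreas and beta cells, read 1023 and 815 fresh and 843 and 930 cultured (-0.04, 95% interval -0.57 to 0.49), with overlapping groups. Nkx6-1, a beta cell factor, read 1264 and 1365 and 1385 and 1306 (0.03, -0.31 to 0.37), and Neurod1 read 4362 and 4536 and 4459 and 4560 (0.02, -0.20 to 0.24). Of 21 genes of granule docking and exocytosis 0 passed (0 at an unadjusted p under 0.05), and of 17 ion channel genes 0 passed (4 unadjusted). Snap25, a SNARE of granule fusion, read 2641 and 2611 and 2658 and 2519 (-0.02, -0.27 to 0.23). The intervals of these 4 genes leave room for changes smaller than 2-fold in either direction.

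Of 8 alpha cell markers and 7 delta and PP cell markers, 0 passed (0 and 3 at an unadjusted p under 0.05). The difference of Gcg was -0.12 (-0.49 to 0.25). Ppy, pancreatic polypeptide, read 16917 and 16602 fresh and 14103 and 14701 cultured (-0.22, -0.62 to 0.19). Sst, somatostatin of delta cells, was lower on both cultured arrays, 12230 and 11887 against 8701 and 9492 (-0.41, -0.69 to -0.13, adjusted p = 0.105). It passed in the same narrower fits, to 12 arrays (adjusted p = 0.0322) and to 4 (adjusted p = 0.033). Actb, a housekeeping gene, read 7433 and 6758 and 6597 and 5418 (-0.24, -0.61 to 0.12).

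**Figure D4:**
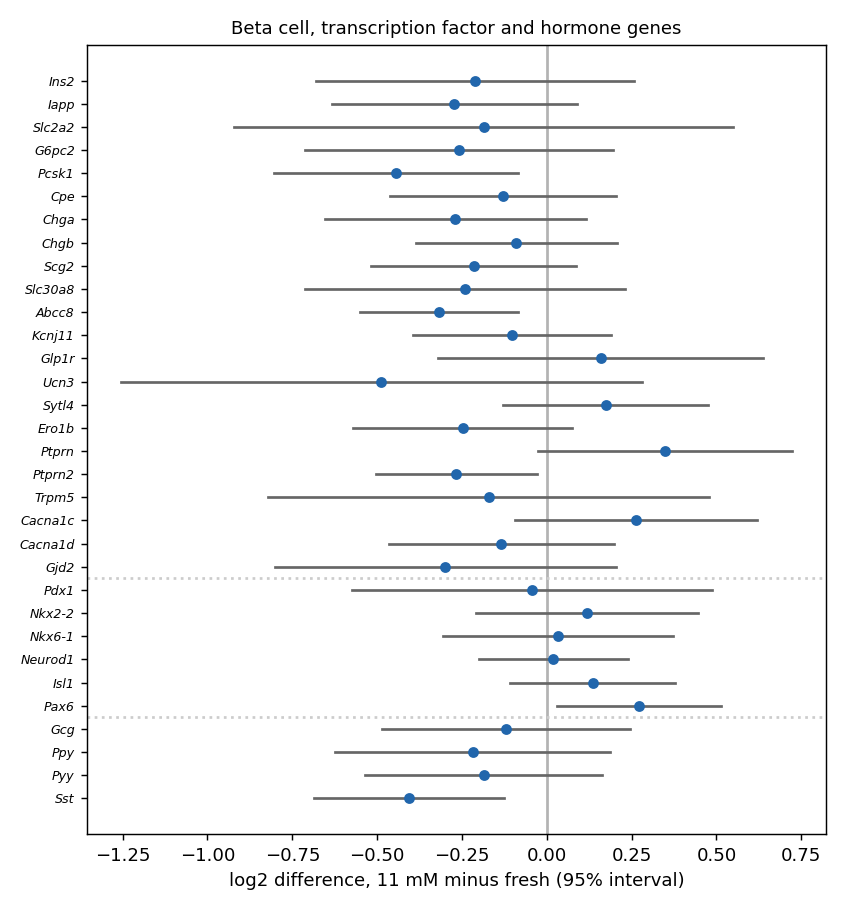
The log2 difference between cultured and fresh young islets is shown with its 95% interval for 32 genes: 22 beta cell function genes (top), 6 transcription factors (middle) and 4 hormone genes (bottom). The interval contains 0 for 27 genes, lies below 0 for 4 (Pcsk1, Abcc8, Ptprn2 and Sst) and above 0 for 1 (Pax6), and none of the 32 passed after adjustment over all genes in the fit over all arrays.

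Of the glucose-responsive genes, Txnip stood out. It encodes a thioredoxin inhibitor whose transcription follows glucose through ChREBP, and it read 2265 and 1684 fresh and 706 and 802 cultured (-1.36, SE 0.20, adjusted p = 0.000152), so both cultured arrays lay well below either fresh array. It was the only one of 19 ChREBP and lipogenesis genes that passed. In old islets, whose groups at each glucose concentration share their fresh controls, Txnip read 3123 and 1912 fresh, 364 and 319 at 3 mM, 266 and 336 at 5.5 mM and 1305 and 1037 at 11 mM. Other fuel pathways gave few calls: 0 of 16 glycolysis genes (1 at an unadjusted p under 0.05), 1 of 40 oxidative phosphorylation genes (lower) and 1 of 20 citric acid cycle genes passed. The last was Fh1, fumarate hydratase, which rose from 2144 and 2357 to 3549 and 3773 (0.70, SE 0.12).

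Some proliferation genes fell in culture. Of 30 cell cycle genes, 5 fell and none rose (median -0.50), against 2.51% of all genes called lower. Mki67, the proliferation marker Ki-67, read 278 and 224 fresh and 71 and 106 cultured (-1.37, SE 0.26, adjusted p = 0.00283). Top2a, the topoisomerase of dividing cells, read 292 and 217 and 79 and 139, Cdc20, an activator of mitotic exit, 264 and 214 and 83 and 111, and Ccnb2, cyclin B2, 129 and 101 and 36 and 69. Ccnd1, cyclin D1 of the G1 phase, went from 1721 and 1634 to 1083 and 1084. The count was 0 without cultured replicate 3 or fresh replicate 1, and 3 without fresh replicate 2. None of these 5 calls held with each array left out: Mki67 was lost without cultured replicate 3 or fresh replicate 1 (adjusted p 0.0519 to 0.0644), Cdc20 without cultured replicate 3 or fresh replicate 1 (adjusted p 0.0925 to 0.0991), Top2a without cultured replicate 3 or fresh replicate 1 (adjusted p 0.204 to 0.268), Ccnb2 without cultured replicate 3, fresh replicate 1 or fresh replicate 2 (adjusted p 0.0815 to 0.425) and Ccnd1 without cultured replicate 3, cultured replicate 4, fresh replicate 1 or fresh replicate 2 (adjusted p 0.0629 to 0.126). In old islets Mki67 was dim before and after culture (10 and 12 fresh, 7 and 4 cultured), and the difference between the ages in the culture change of Mki67 did not pass (adjusted p = 0.461).

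General stress programmes gave fewer calls than the ATF4 list. Over all genes, 4.19% passed in either direction. Of 31 ER chaperone and unfolded protein response genes, 2 rose and 2 fell, and 0 of the 4 calls held with each array left out. In that list 12 genes had an unadjusted p under 0.05, and 24 estimates lay below 0. Of 21 heat shock genes 1 rose, of 30 NF-kB targets 1 fell, of 26 interferon response genes 2 fell and of 24 hypoxia response genes 1 rose and 1 fell. Proteasome subunits (0 of 35), cholesterol synthesis genes (0 of 19) and clock genes (0 of 18) did not pass, with 10, 3 and 8 at an unadjusted p under 0.05, and 1 of 41 cytosolic ribosomal protein genes did.

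In old islets, cultured in the same way, 699 genes passed (5.56%), 351 higher (2.79%) and 348 lower (2.77%). Of these calls, 295 were shared with young islets in the same direction, 56% of the young calls and 42.2% of the old, and 0 were opposite. Across all genes the differences of both ages correlated at 0.684 (Pearson) and 0.37 (Spearman). The ages share no array but use the same probe sets. Both comparisons also come from the same fit and share each gene's standard error. The 295 shared calls are thus not from independent tests. The main groups moved alike: acinar markers (22 of 24 lower in old islets, median -5.74), endothelial markers (18 of 22 lower, median -1.31), immediate early genes (16 of 43 lower, median -0.75) and ATF4 genes (26 of 36 higher, median 0.69). The acinar sums of the fresh old arrays were 32476 and 62859, above the 29442 and 16163 of the fresh young arrays, and the cultured sums were 794 and 1335.

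The difference in culture response between the ages was tested directly, and 3 of 12580 genes passed (0.0238%). Gstp1 rose further in young than in old islets: old islets read 1972 and 2021 fresh and 4752 and 5275 cultured, and the difference between the ages was 1.07 (SE 0.16, adjusted p = 0.0166). Fosb, an AP-1 subunit, read 62 and 60 in fresh young and 421 and 271 in fresh old islets, against 12 and 18 and 8 and 5 after culture, so it fell less in young islets (2.66, SE 0.43, adjusted p = 0.0288). Ap2m1, a subunit of the clathrin adaptor AP-2, was lower on the cultured young arrays (225 and 267 to 145 and 149) and somewhat higher on the cultured old arrays (297 and 244 to 320 and 388), a difference of -1.05 (SE 0.18, adjusted p = 0.0424). The next 7 genes (Mllt1, Dusp1, Esm1, Eef1a2, Socs2, Bsg and Rccd1) had adjusted p from 0.0513 to 0.259. Without replicate 2 of the fresh young islets, 0 genes passed in limma's test (1097 at an unadjusted p under 0.05) and Gstp1 had an adjusted p of 0.094.

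**Figure D5:**
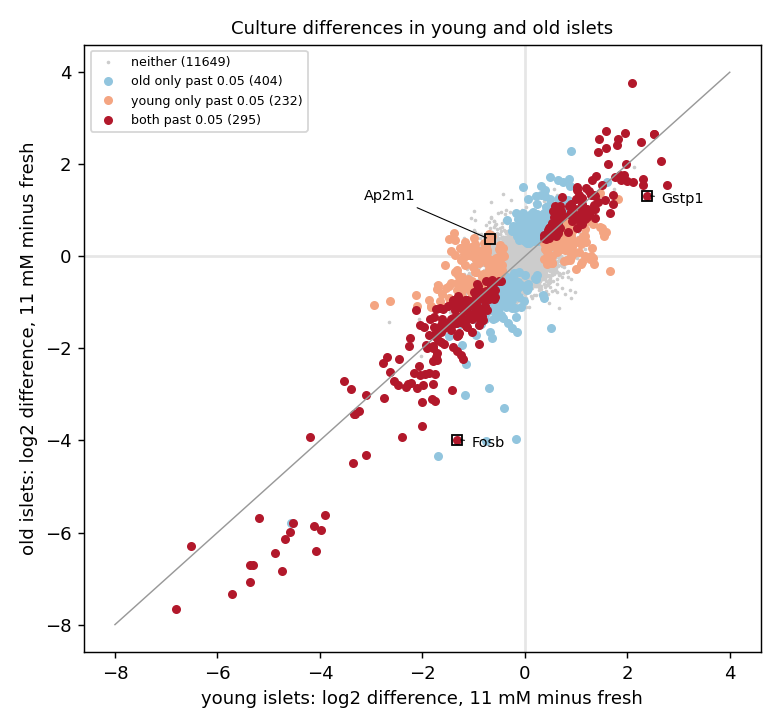
Each point is a gene, by its log2 culture difference (11 mM minus fresh) in young islets on the horizontal axis and in old islets on the vertical axis, coloured by the comparison in which it passed an adjusted p of 0.05; the line marks equal differences. Both comparisons passed for 295 genes, young islets alone for 232 and old islets alone for 404, and squares mark the 3 genes whose difference between the ages passed (Gstp1, Fosb and Ap2m1).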

How the data were processed

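Total RNA was hybridised to Affymetrix mouse arrays after labelling from 50 ng of RNA, per the labels' protocols. MAS5 is the tool named in the submitters' processing notes; its version is not given in the sources used here. Each deposited value is the linear intensity of a probe set, and the mean after trimming 2% at each end was 150 on all arrays.

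Intensities were transformed as log2(value + 16). A probe set was kept if it exceeded the median of its array on 2 or more of 26 arrays (23047), and the brightest stood for each gene (12580 genes, named by the platform annotation). Means of 13 groups, with the 4 young arrays at 11 mM split by array set, were fitted over all arrays (limma 3.58.1, R 4.3.3; trended prior, 13 residual and 7.02 prior degrees of freedom), and the procedure was checked on simulated data. "Rose" and "fell" mean a Benjamini-Hochberg adjusted p under 0.05, and SE is limma's moderated standard error. With 2 arrays a group, a p-value reflects the spread within groups pooled over all 26 arrays, not that of the compared arrays alone. It says nothing of samples beyond these. Of 88 named genes that passed, 37 had several kept probe sets, which disagreed in sign for 1 gene. Sizes could differ: kept probe sets gave -2.48 and -0.35 for Epas1, and -1.36 and -0.57 for Txnip. Those of Eif4ebp1 gave 1.86, 1.37 and 0.11, while those of Jun lay close (-2.29 and -2.28). The differences given are those of the brightest.

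Named genes were the 15 largest rises and 15 largest falls among called genes whose arrays did not overlap, list members by adjusted p or role, the 10 smallest adjusted p for the difference between the ages, and fixed islet genes (Gapdh was not analysed here as a gene). Members and lists were chosen with earlier results of these data known. Promoters are from RefSeq (GRCm38.p6).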

Additional observations from a re-analysis of the deposited data

Results flagged for a closer look

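The culture difference of 3 genes differed between young and old islets by the test of the difference itself. For Gstp1 the young minus old difference was 1.07 (SE 0.16), and it passed under 14 of 17 alternatives, with adjusted p from 0.00506 to 0.094. For Fosb it was 2.66 (SE 0.43), and it passed under 9 of 17, with adjusted p from 0.00012 to 0.351. For Ap2m1 it was -1.05 (SE 0.18), and it passed under 7 of 17, with adjusted p from 0.0185 to 0.278. On the young arrays at 11 mM of the other array set Ap2m1 read 713 and 751, against 145 and 149 on the cultured arrays used here and 225 and 267 on the fresh arrays.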

How the results depend on the processing

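The count of 527 genes for young islets stayed within 1.5 times under 9 alternatives (409 to 637), and with all 4 cultured replicates, which crosses the array sets, it was 828 (389 higher, 439 lower). With 1 array left out it was 287 to 350: 292 and 350 without fresh replicates 1 and 2, 302 and 287 without cultured replicates 3 and 4, where the lone array is assumed to vary like the other groups. The count of 699 for old islets ran from 306 to 671 with 1 array left out, and was 306 without fresh replicate 1 and 371 without cultured replicate 2. The 3 genes that differed between the ages were 5 with an offset of 64, 1 with quantile normalization, and 0 to 7 with 1 array left out. With all 4 cultured replicates the differences of Ap2m1 and Eef1a2 turned to 0.42 and 0.20 (adjusted p = 0.572 and 0.754).

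No paired analysis was possible because fresh replicates 1 and 2 and cultured replicates 3 and 4 of young islets share no number. For old islets a replicate block gave 863 calls against 699. The number of arrays limits the precision, and probe sets near the floor of the signal are measured poorly.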

Other observations

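The 2 young arrays at 11 mM of the other array set entered the spread of the fit over all arrays and the alternative with all 4 cultured replicates. The fits to 12 arrays of one set and to the 4 arrays alone left them out. Those 2 arrays gave these signals beside the fresh values already shown. Fos read 59 and 135 there, Egr1 102 and 166, Zg16 2 and 2, and Kdr 31 and 33. Col5a2 read 589 and 597, Fn1 271 and 297, Chac1 1279 and 999, Asns 3168 and 3425, Gstp1 5297 and 4650, Id2 936 and 997, and Txnip 722 and 876. Gadd45a read 72 and 102, below the fresh 179 and 147, while cultured replicates 3 and 4 read 365 and 380. Ap2m1 read 713 and 751, above the fresh 225 and 267, while replicates 3 and 4 read 145 and 149. The genes were called against the same fresh arrays, so these values are a description.

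Old islets at lower glucose give values beside those at 11 mM. Fos read 40 and 74 at 3 mM, 31 and 30 at 5.5 mM and 59 and 66 at 11 mM, against 7199 and 5258 in fresh old islets, so it was low at every concentration. Chac1 read 498 and 545 at 3 mM, 897 and 778 at 5.5 mM, and 960 and 1280 at 11 mM, against 299 and 417 fresh. Asns read 2192 and 2262, 2556 and 2393, and 3628 and 2717 in the same order, against 1628 and 1658 fresh. Other genes of the ATF4 list were lower at 11 mM than at 3 mM. Ddit3 read 5125 and 4540, 3571 and 2209, and 649 and 864 in that order, against 331 and 418 fresh. Trib3 read 1063 and 1039, 1230 and 1047, and 322 and 381, against 108 and 152 fresh.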
